A study of Mus musculus with 8 samples.

Results

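Imprinted genes are genes of which the copy inherited from 1 parent is expressed and the other is silent. Chromatin accessibility was examined at 34 listed autosomal imprinted genes in mouse pachytene spermatocytes with and without ARID1A. The 34 were taken by name and no measured value selected them, but the list was chosen with earlier results of these data known. All 34 were found in the GENCODE annotation, and 30 of them are protein-coding and 4 are noncoding (*H19*, *Kcnq1ot1*, *Meg3* and *Airn*). They were set beside 20807 autosomal protein-coding genes, among 51229 annotated autosomal genes. Accessibility had been measured by ATAC-seq, in which Tn5 transposase places adapters into accessible DNA, in 4 *Arid1a* WT and 4 *Arid1a* cKO libraries. *Arid1a* cKO males were *Arid1a* fl/fl with 1 copy of a *Stra8-Cre* transgene, which is expressed from spermatogonia onwards, and *Arid1a* WT males were fl/fl or fl/+ without Cre, the floxed line being kept on CD1. Testes of several adult males were pooled and fractionated by sedimentation (Sta-Put), and libraries were made from cryopreserved aliquots, which are not stated to come from separate animals. Cre excision was incomplete, so the cKO libraries mixed cells without ARID1A, the subunit that defines the BAF-A form of the SWI/SNF chromatin remodeler, with escaper cells that kept it.

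Imprints are DNA methylation marks placed on CpG-rich control regions in the egg or in the sperm, called germline differentially methylated regions (germline DMRs), and copied in the embryo on the marked chromosome. Most carry egg methylation and lie at a promoter, often that of a long noncoding RNA or of a gene expressed from the paternal allele, whereas the few that carry sperm methylation lie between genes. In male germ cells the inherited marks have been erased and the paternal pattern is present on both chromosomes, so "paternally expressed" and "maternally expressed" here name the allele that is active in the body, not an allele that could be told apart in these spermatocytes.

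The authors deposited 1 peak list per genotype, made by intersecting the peaks of its libraries, with 19309 WT and 30244 cKO peaks after rows of the same peak were joined. Each peak carries the fold enrichment of its summit, the fragment pileup plus 1 over the constant background plus 1 of 1 library. The background was 4.33 fragments for WT and 5.11 for cKO, the lowest summit listed held 13 and 14 fragments, and the lowest fold listed was 2.63 and 2.45, respectively. With 1 list per genotype there are no values per replicate, so no difference between the genotypes was tested. Intervals given with fold values are exact 95% Poisson intervals of the summit fragments and cover counting error only. Over all genes with a promoter peak in both lists the cKO fold was 1.565 times the WT fold by the median, and ratios are given relative to that median where stated. All 10 pachytene markers in a list of synaptonemal complex and meiotic genes (*Sycp1*, *Sycp2*, *Sycp3*, *Hormad1*, *Piwil1* and others) had a promoter peak in both lists, with folds of 6.94 to 19.5 in WT and 11.6 to 33.7 in cKO.

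Of the 34 imprinted genes, 18 displayed a promoter peak in *Arid1a* WT pachytene spermatocytes and 25 in *Arid1a* cKO. A promoter was the stretch from 1000 bp before to 100 bp after any annotated start. The WT share, 52.9%, lay close to the 51.1% of all autosomal protein-coding genes, and the cKO share, 73.5%, lay above their 57.6%. The higher cKO share depended on counting every annotated start. With 1 start per gene, 13 of 34 members had a promoter peak in WT, beside 45.7% of all genes. In cKO 17 of 34 then had one, beside 52% of all genes. Between the lists, 7 members (20.6%) gained a promoter peak in cKO, against 6.74% of all genes, and 0 lost one, against 0.279%. A further 9 members (26.5%) had no promoter peak in either list, against 42.2% of all genes. When the gene body and 5000 bp upstream were counted as well, 21 members (61.8%) held a peak in WT beside 58.1% of all genes, and 26 (76.5%) in cKO beside 66.0%. With both lists cut to the same number of peaks, 2 members gained a promoter peak, *Snrpn* and *Meg3*, beside 3.51% of all genes, and 0 lost one, beside 1.07%.

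**Figure D1:**
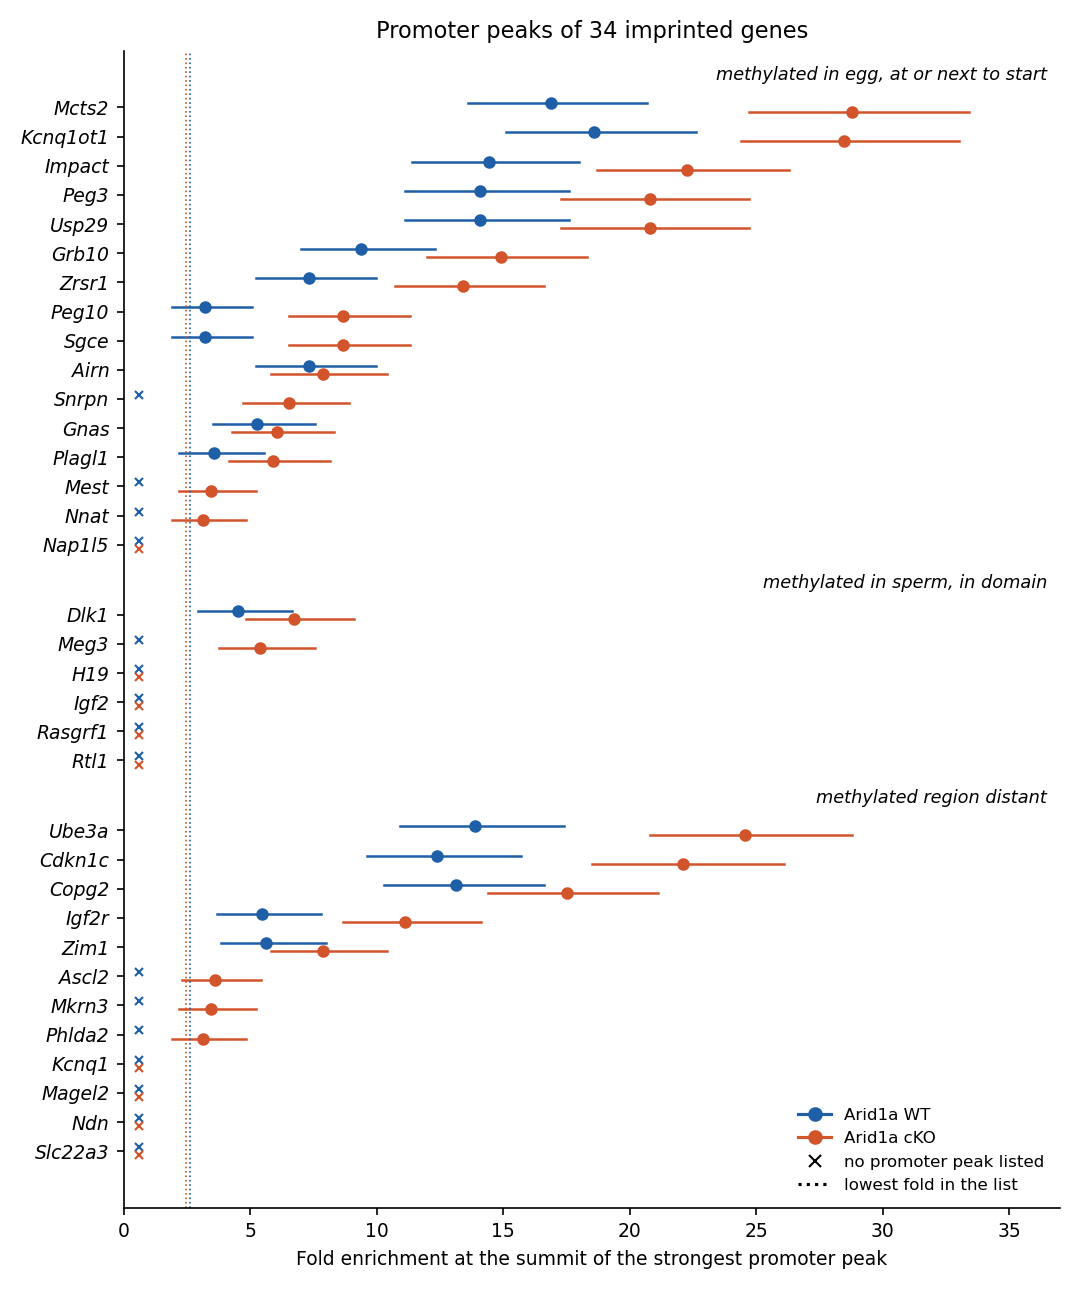
Fold enrichment (horizontal axis, linear) of the strongest promoter peak of each of the 34 genes in the WT (blue) and cKO (orange) lists, grouped by their germline DMR, with exact 95% Poisson intervals of the summit fragments. Crosses stand for no listed promoter peak and dotted lines for the lowest fold in each list. Of the 7 genes with a cKO point alone, 5 sit between 3.11 and 3.60, close to the dotted lines.

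The strongest promoter peaks of imprinted genes were those of *Kcnq1ot1* and *Mcts2*, both with egg methylation and paternal expression. *Kcnq1ot1*, the noncoding RNA that runs antisense inside *Kcnq1* and silences its neighbours, had a promoter peak of fold 18.6 (15.1 to 22.6) in WT and 28.5 (24.4 to 33.0) in cKO, which put it at percentiles 94.6 and 93.7 of genes with a promoter peak. *Mcts2*, a retrogene of a translation factor that lies in an intron of *H13*, reached 16.9 (13.6 to 20.7) and 28.8 (24.7 to 33.4). These were the strongest members in either list. The third strongest in WT was *Impact*, a regulator of the translation kinase GCN2, at 14.4 (11.4 to 18.0) in WT and 22.3 (18.7 to 26.3) in cKO. The third strongest in cKO was *Ube3a*, a ubiquitin ligase, at 13.9 (10.9 to 17.4) in WT and 24.5 (20.8 to 28.8) in cKO. At all 4 the WT interval lay below the cKO interval, and relative to all genes their ratios, in the order above, were 0.980, 1.09, 0.985 and 1.13.

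Imprinted promoters with and without a peak were found at both low and high CpG content. The 250 bases before the start of 6 members are shown to make that visible, from the RefSeq sequence of GRCm38.p6 in the direction of transcription, with each CpG dinucleotide in capitals. *Kcnq1ot1* (chr7:143296548-143296797, minus strand, 5 CpG) and *Mcts2* (chr2:152686898-152687147, plus strand, 20 CpG) lay under a peak in both lists. *Phlda2* (chr7:143502525-143502774, minus strand, 21 CpG) lay under a peak in the cKO list alone. *Nnat* (chr2:157559828-157560077, plus strand, 12 CpG) was overlapped in part by a peak in the cKO list alone. That peak began at chr2:157560016, so most of the printed *Nnat* stretch lies before it. *Nap1l5* (chr6:58907127-58907376, minus strand, 10 CpG) and *Rasgrf1* (chr9:89909525-89909774, plus strand, 21 CpG) lay under none.
Kcnq1ot1: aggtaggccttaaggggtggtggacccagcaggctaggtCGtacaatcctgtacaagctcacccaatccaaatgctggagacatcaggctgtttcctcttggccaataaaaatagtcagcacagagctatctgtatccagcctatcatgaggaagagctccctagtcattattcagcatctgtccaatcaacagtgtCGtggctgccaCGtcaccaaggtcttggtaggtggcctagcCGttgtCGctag
Mcts2: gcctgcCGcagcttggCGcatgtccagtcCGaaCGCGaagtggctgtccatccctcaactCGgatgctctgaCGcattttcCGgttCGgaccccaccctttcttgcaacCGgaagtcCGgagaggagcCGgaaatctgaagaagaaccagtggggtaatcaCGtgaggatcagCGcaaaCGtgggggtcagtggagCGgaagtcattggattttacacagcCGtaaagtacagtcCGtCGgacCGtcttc
Phlda2: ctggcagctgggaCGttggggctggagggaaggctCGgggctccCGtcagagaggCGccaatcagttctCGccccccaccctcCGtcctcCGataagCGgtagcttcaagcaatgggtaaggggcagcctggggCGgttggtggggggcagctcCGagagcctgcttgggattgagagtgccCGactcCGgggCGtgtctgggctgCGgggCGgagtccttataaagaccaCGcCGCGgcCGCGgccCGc
Nnat: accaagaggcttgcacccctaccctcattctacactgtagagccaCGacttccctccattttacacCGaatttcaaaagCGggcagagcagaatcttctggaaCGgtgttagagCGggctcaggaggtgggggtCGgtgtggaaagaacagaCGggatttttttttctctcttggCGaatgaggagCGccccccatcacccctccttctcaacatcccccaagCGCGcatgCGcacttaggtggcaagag
Nap1l5: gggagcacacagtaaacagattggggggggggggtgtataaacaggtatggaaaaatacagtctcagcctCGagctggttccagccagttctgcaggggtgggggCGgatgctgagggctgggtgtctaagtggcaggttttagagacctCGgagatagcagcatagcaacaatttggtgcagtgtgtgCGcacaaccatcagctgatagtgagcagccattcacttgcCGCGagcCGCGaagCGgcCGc
Rasgrf1: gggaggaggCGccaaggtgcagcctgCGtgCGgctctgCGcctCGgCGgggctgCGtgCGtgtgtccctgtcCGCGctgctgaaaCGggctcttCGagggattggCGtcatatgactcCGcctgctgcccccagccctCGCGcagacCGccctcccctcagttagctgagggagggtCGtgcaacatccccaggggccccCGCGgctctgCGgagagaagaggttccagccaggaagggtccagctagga

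*Phlda2* and *Rasgrf1* show equal counts of CpG with different peak status, and the *Kcnq1ot1* stretch holds the fewest of the 6 under one of the strongest peaks. Counted over 300 bp around each gene's most CpG-rich start, members had a median of 23.5 CpG and all genes a median of 19. Of 11942 genes with at least 15 CpG there, 78.5% had a promoter peak in WT and 85.1% in cKO, and of the 27 members with at least 15 CpG, 15 had one in WT and 21 in cKO. In the richest class, with at least 25 CpG, 82.9% of 7754 genes had a WT promoter peak, as did 10 of 13 members. The 3 without, in either list, were *Igf2*, *Kcnq1* and *Rasgrf1*. At the other end, the class of 5 to 9 CpG held 3 members. *Kcnq1ot1* (9 CpG) and *Airn* (7 CpG) had a promoter peak in both lists, and *Rtl1* (5 CpG) had one in neither. Of the 2552 genes in that class, 15.8% had one in WT and 24.5% in cKO. Those genes all code for proteins, whereas *Kcnq1ot1* and *Airn* are noncoding. The CpG counts of this paragraph up to here cover the 300 bp or the printed stretches alone. The whole WT promoter peak held 104 CpG at *Kcnq1ot1* (4.485 per 100 bp) and 86 at *Airn* (7.049 per 100 bp).

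The 7 promoters that gained a peak belong to genes with unlike roles, and 5 of the 7 peaks were weak. *Phlda2*, which restrains placental growth, had a cKO promoter peak of fold 3.11 (1.91 to 4.82) on 18 fragments. *Ascl2*, a trophoblast transcription factor, had one of 3.60 (2.29 to 5.42), and *Mkrn3*, a ring-finger protein, one of 3.44 (2.16 to 5.22). *Mest*, an enzyme of the hydrolase family, also had one of 3.44, on 20 fragments, and *Nnat*, a neuronal membrane proteolipid, one of 3.11 on 18 fragments. These 5 lie at percentiles 1.96 to 5.10 of all cKO promoter peaks by strength. The *Ascl2* peak stood on 1 row of the list and the *Mest* peak on 2, the others on 3.

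*Meg3* and *Snrpn* stood higher. *Meg3*, the maternally expressed noncoding RNA of the *Dlk1* domain, had no peak in WT and one of fold 5.40 (3.75 to 7.56) on 32 fragments in cKO, 1237 bp wide, with its summit 751 bp after the nearest start. This peak begins at chr12:109541916, inside the gene, whose first base is 109541001. With 1 start per gene, or with promoters called by the peak centre, neither *Meg3* nor *Snrpn* counted as gained. *Snrpn*, which encodes a spliceosome protein and starts in the control region of the Prader-Willi and Angelman domain, had a peak in both lists, of fold 4.88 (3.22 to 7.11) in WT and 6.55 (4.70 to 8.89) in cKO. The WT peak began 262 bp after the start and ended 161 bp short of the promoter stretch, and the cKO peak, 2201 bp wide, reached it. The gain of *Snrpn* is therefore a wider shared peak, and its fold ratio over that peak was 0.857 relative to all genes. Divided by the all-gene ratio, the cKO folds of the 7 genes came to 1.99 (*Phlda2* and *Nnat*), 2.20 (*Mkrn3* and *Mest*), 2.30 (*Ascl2*), 3.45 (*Meg3*) and 4.18 (*Snrpn*), so that 5 of 7 were under 2.63, the lowest fold of the WT list. Of all 1402 genes that gained a promoter peak, 800 (57.1%) were under it.

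**Figure D2:**
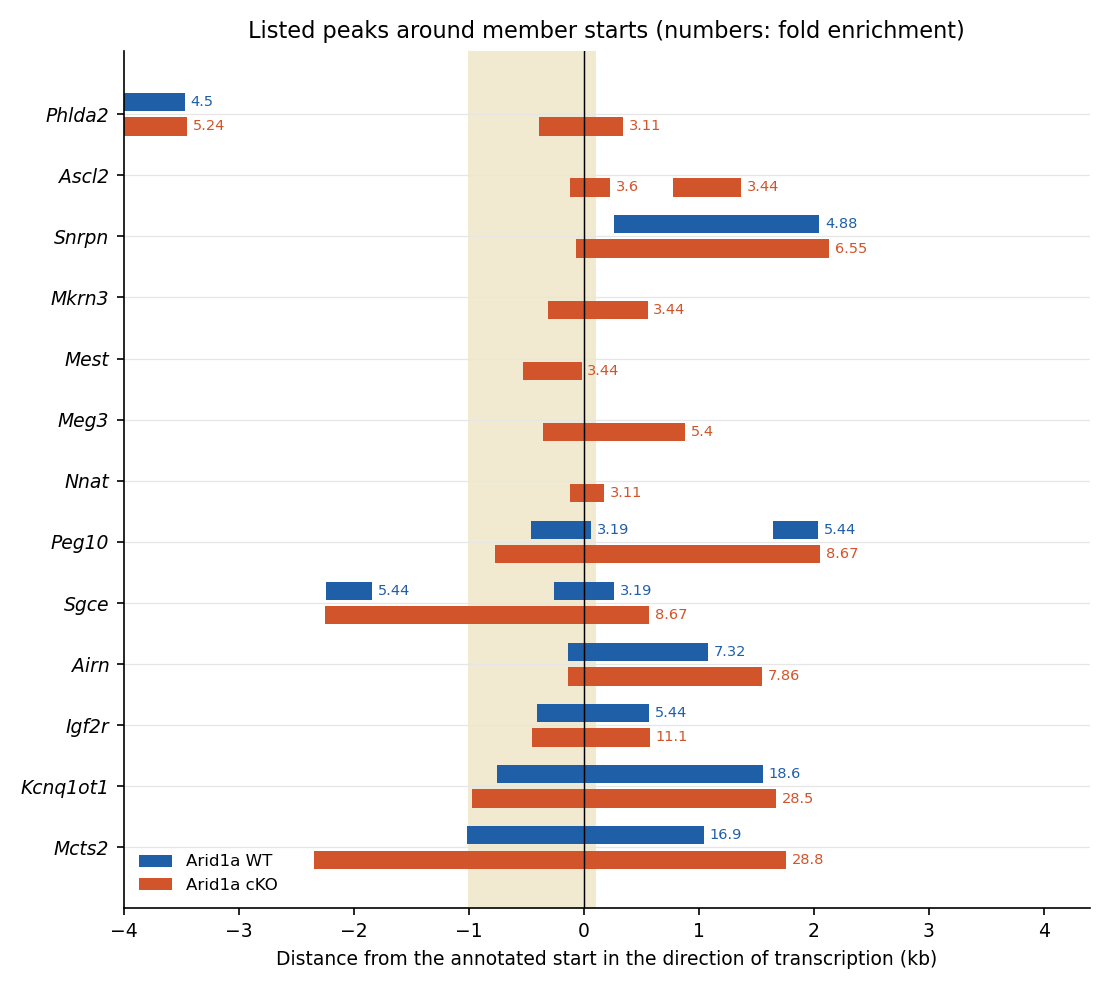
Extent of every listed peak within 4 kb of the annotated start nearest to the strongest cKO promoter peak (horizontal axis, kb, transcription to the right) at the 7 genes with a gained promoter peak and at 6 others, WT in blue and cKO in orange, with the fold enrichment beside each bar. The shaded band is the promoter stretch. *Snrpn* has a WT bar that stops short of the band, and at *Peg10* and *Sgce* 1 cKO bar spans both WT bars.

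The 9 members without a promoter peak in either list were *H19*, a growth-restraining noncoding RNA, *Igf2*, the fetal growth factor next to it, the potassium channel gene *Kcnq1*, *Ndn* and *Magel2* of the MAGE family, the retrotransposon-derived *Rtl1*, the Ras exchange factor *Rasgrf1*, *Nap1l5* of the nucleosome assembly family, and the cation transporter *Slc22a3*. Of these, *Kcnq1* alone held peaks in its body. The domain of *H19* and *Igf2*, 91.3 kb from the first to the last base of the pair on chromosome 7, held 0 peaks in WT and 0 in cKO. A summit of fewer than 13 fragments in WT or 14 in cKO, or a peak not shared by the replicates, would not appear in these lists, so absence of a peak is not absence of accessibility.

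Where a promoter peak was present in both lists, the cKO to WT ratios of imprinted genes were centred where those of all genes were. The fold enrichment was higher in cKO at 18 of 18 members, against 97.9% of 10576 genes. The median ratio was 1.564 (order-statistic interval 1.477 to 1.784) against 1.565, and relative to all genes the member median was 0.999 (0.944 to 1.14) with a range of 0.686 to 1.74. Past 1.5 times the all-gene median in the higher direction there were 2 of 18 members, beside 1.26% of all genes, and past 1.5 times in the lower direction 0 members, beside 3.01%. The 2 were *Peg10*, a retrotransposon-derived gene needed for the placenta, and *Sgce*, epsilon-sarcoglycan, which share 1 divergent promoter and so count as 1 observation.

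At the promoter shared by *Peg10* and *Sgce* the WT list held a peak of fold 3.19 (1.90 to 5.06, 16 fragments, 522 bp) over the start and a separate peak of 5.44 (3.68 to 7.78, 28 fragments, 399 bp) 1641 bp into *Peg10*. The cKO list held a single peak of 8.67 (6.52 to 11.3, 52 fragments, 2825 bp) over both, at chr6:4746636-4749460 of mm10. Against the WT promoter peak the ratio was 1.74 relative to all genes (1.02 to 3.40). The cKO summit, however, lay about 1895 bp from the *Peg10* start and about 29 bp from the summit of the second WT peak. Against that peak the ratio was 1.02. When every cKO promoter peak was set against the WT peak under its summit, in 19 members including *Snrpn*, 0 members passed 1.5 times in either direction, beside 0.668% of 10337 genes in the higher and 2.64% in the lower direction. What did differ at this locus was the extent of the listed peak.

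**Figure D3:**
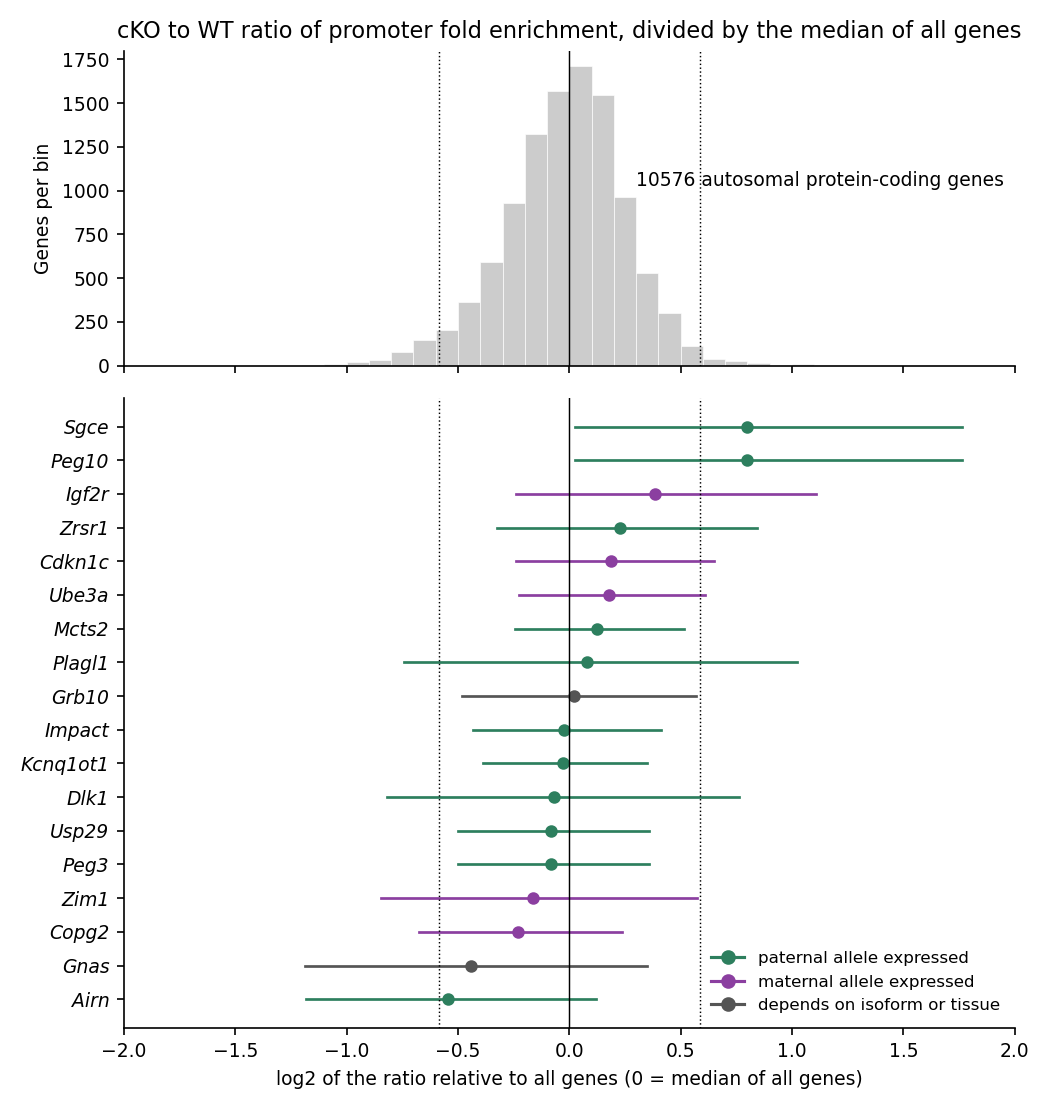
Top, number of genes (vertical axis) by the log2 cKO to WT ratio of promoter fold enrichment after division by the median of all 10576 genes. Bottom, the same ratio for the 18 imprinted genes with a promoter peak in both lists, with exact 95% intervals from the summit fragments, coloured by expressed allele. Dotted lines mark 1.5 times in either direction, and apart from *Peg10* and *Sgce*, which share 1 peak, every point lies between them.

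At the *Igf2r* domain the ratios of the overlapping pair lay on opposite sides of the all-gene median. *Airn*, the noncoding RNA that runs antisense through *Igf2r* and starts in its egg-methylated control region, had a promoter peak of fold 7.32 (5.23 to 9.97) in WT and 7.86 (5.81 to 10.4) in cKO, a ratio of 0.686 relative to all genes (0.440 to 1.09) and the lowest of the 18. *Igf2r*, the receptor that clears IGF2, had one of 5.44 (3.68 to 7.78) and 11.1 (8.66 to 14.1), a ratio of 1.31 (0.846 to 2.15). *Airn* was thus the stronger of the pair in WT and the weaker in cKO, but each interval of the ratio holds 1 and the intervals overlap. *Gnas*, the stimulatory G protein subunit, stood next to *Airn* at 0.737 (0.439 to 1.27), with folds of 5.25 in WT and 6.05 in cKO. With a promoter of 3000 bp either side of the start its ratio was 1.16, and with the folds of its promoter peaks summed it was 1.07.

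The other members with a promoter peak in both lists kept close to the all-gene ratio. *Peg3*, a zinc-finger gene, and *Usp29*, a ubiquitin peptidase, share 1 divergent peak of fold 14.1 in WT and 20.8 in cKO (relative ratio 0.944), with summits 1 bp apart in the 2 lists. *Zim1*, a zinc-finger gene of the same domain, had folds of 5.63 and 7.85 (0.892). *Cdkn1c*, the cell cycle inhibitor p57, had 12.4 in WT and 22.1 in cKO (1.14), *Copg2*, a coat protein of transport vesicles, 13.1 and 17.5 (0.852), and *Grb10*, an adaptor that restrains insulin signalling, 9.38 and 14.9 (1.01). *Zrsr1*, a splicing factor retrogene inside *Commd1*, had 7.32 and 13.4 (1.17), *Plagl1*, a zinc-finger transcription factor, 3.56 and 5.89 (1.06), and *Dlk1*, a membrane protein that restrains differentiation, 4.50 and 6.71 (0.952). The counting intervals of all these ratios hold 1. Summits of the strongest promoter peak lay within 200 bp of each other in the 2 lists at 13 of 18 members, with a median distance of 107 bp. Summit distances are approximate, since positions were counted from the joined rows.

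Promoter peaks of imprinted genes were also wider in cKO, as were those of most genes. The cKO width was the larger at 18 of 18 members, against 95.7% of all genes, with a median ratio of 1.36 (1.10 to 1.85) beside 1.47. The median summed width of promoter peaks was 1272 bp in WT and 1762 bp in cKO. The extremes were *Peg10* and *Sgce* at 5.41 times, where adjoining WT peaks were joined, and *Peg3* and *Usp29* at 1.03 times, with 3185 bp in WT and 3283 bp in cKO. *Mcts2* had 2066 bp and 4105 bp, and *Dlk1* had 800 bp in WT and 1500 bp over 2 peaks in cKO, the second at an internal start.

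Counted over bodies, upstream regions and promoters together, the 34 genes held 26 distinct peaks in WT, of which 25 overlapped a cKO peak, and 44 in cKO, of which 24 overlapped a WT peak and 20 did not. The unshared share was 3.85% in WT, beside 4.72% of all 18345 autosomal WT peaks, and 45.5% in cKO, beside 43% of 28553. Of the 20 unshared cKO peaks, 8 lay at a promoter, with folds of 2.78 to 5.40, and 12 elsewhere, with folds of 2.78 to 3.76. Median fold at members was 5.53 in WT and 4.91 in cKO, where all autosomal peaks had medians of 5.44 and 4.91. *Kcnq1* held 4 peaks in WT and 7 in cKO, among them 3 unshared cKO peaks of 3.44 to 3.76 between 220108 and 222512 bp from a start. It also held the 1 WT peak at members without a cKO counterpart (166 bp, fold 3.75, 44852 bp from a start), and a cKO peak of 154 bp (fold 2.78, 44693 bp from that start) lay next to it without overlapping.

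Several members held more than 1 peak, with a strong shared peak and weaker ones in cKO alone. *Gnas* held 2 peaks in WT and 5 in cKO: the strongest, 1760 bp from the nearest *Gnas* start in WT, is the promoter peak of the antisense RNA *Nespas* with folds of 11.1 (8.45 to 14.3) in WT and 19.96 (16.6 to 23.8) in cKO. The 3 unshared cKO peaks of *Gnas* had folds of 2.78 to 3.44, and 1 of them lay 27 bp from an annotated start. *Grb10* held 1 peak in WT and 3 in cKO, with unshared peaks of 2.78 and 3.11, the latter 104 bp from an annotated start. *Cdkn1c* had a second shared peak 3000 bp upstream of its start, at 6.57 in WT and 9.33 in cKO, 3410 and 3331 bp wide, respectively. *Phlda2* had a shared peak, 2863 bp upstream in WT, at 4.50 in WT and 5.24 in cKO, beside its gained promoter peak. *Ascl2* gained 2 peaks, at its start and 229 bp from an annotated start within the gene. In *Usp29* and *Peg3*, body peaks of 3.94 and 5.07 in WT were at 3.27 in cKO.

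By domain, peaks between the first and last base of the members numbered 11 in WT and 17 in cKO in the *Kcnq1* domain, 2 and 4 at *Dlk1* and *Meg3*, 3 and 4 at *Igf2r*, 4 and 5 at *Peg3*, and 1 and 2 at *Mest*. They numbered 10 and 9 in the *Snrpn* to *Ube3a* domain, which spans 3191 kb, and 2 and 1 at *Peg10*, where WT peaks were joined. Per 100 kb the *Kcnq1* domain held 2.05 peaks in WT and 3.17 in cKO, and the *Snrpn* to *Ube3a* domain 0.313 and 0.282. The cKO list was longer throughout, with 28553 autosomal peaks beside 18345 in WT.

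Genes expressed from the paternal and from the maternal allele displayed promoter peaks at rates with widely overlapping intervals. Of 21 paternally expressed genes, 11 had a promoter peak in WT (52.4%, Wilson 95% interval 32.4 to 71.7%) and 15 in cKO (71.4%, 50 to 86.2%). Of 11 maternally expressed genes, 5 had one in WT (45.5%, 21.3 to 72.0%) and 8 in cKO (72.7%, 43.4 to 90.3%). Among all genes the shares were 51.1% in WT and 57.6% in cKO. The paternal share was thus 6.93 percentage points higher in WT (interval -26.3 to 37.9) and in cKO the difference was -1.299 (-29.0 to 31.5). The sign of either difference turned with the way peaks were called. Gains numbered 4 of 21 and 3 of 11, beside 6.74% of all genes. *Grb10* and *Gnas*, whose expressed allele depends on isoform or tissue, had a promoter peak in both lists. Relative fold ratios had a median of 0.985 in 11 paternally expressed genes (0.686 to 1.74) and of 1.13 in 5 maternally expressed genes (0.852 to 1.31), ranges that overlap. Members share peaks and domains and are not independent, so the intervals describe these counts and no test was made.

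Promoter peaks were also counted by class of germline DMR, beside the 51.1% (WT) and 57.6% (cKO) of all genes. Of 16 genes with an egg-methylated DMR at or next to a start, 12 had a promoter peak in WT (75%, 50.5 to 89.8%) and 15 in cKO (93.8%, 71.7 to 98.9%), with *Nap1l5* as the exception in both. Of 6 genes in domains with a sperm-methylated DMR, 1 had a promoter peak in WT, *Dlk1* (16.7%, 3.01 to 56.4%), and 2 in cKO, *Dlk1* and *Meg3* (33.3%, 9.68 to 70.0%). Of 12 genes whose DMR is distant, 5 had one in WT (41.7%, 19.3 to 68.0%) and 8 in cKO (66.7%, 39.1 to 86.2%). A peak at any annotated start counted, which need not be the start next to the DMR. With 1 start per gene, *Grb10*, *Gnas*, *Plagl1* and *Impact* of the egg-methylated class had none in either list. *Mest* and *Snrpn* then had none in cKO. In the other classes *Dlk1* then had none in WT, and *Meg3* and *Phlda2* none in cKO. The strongest fold of the sperm-methylated class was 4.50 in WT and 6.71 in cKO, below the class medians of the egg-methylated genes in both lists (8.35 and 8.67). Median CpG at the richest start was 22 (range 7 to 54) in the egg-methylated class and 22.5 (5 to 47) in the sperm-methylated class. Any bearing of CpG content on the class shares was not tested. *Peg10* and *Sgce*, and *Peg3* and *Usp29*, each count as 2 genes here although they share a peak, and the difference between the classes was not tested.

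**Figure D4:**
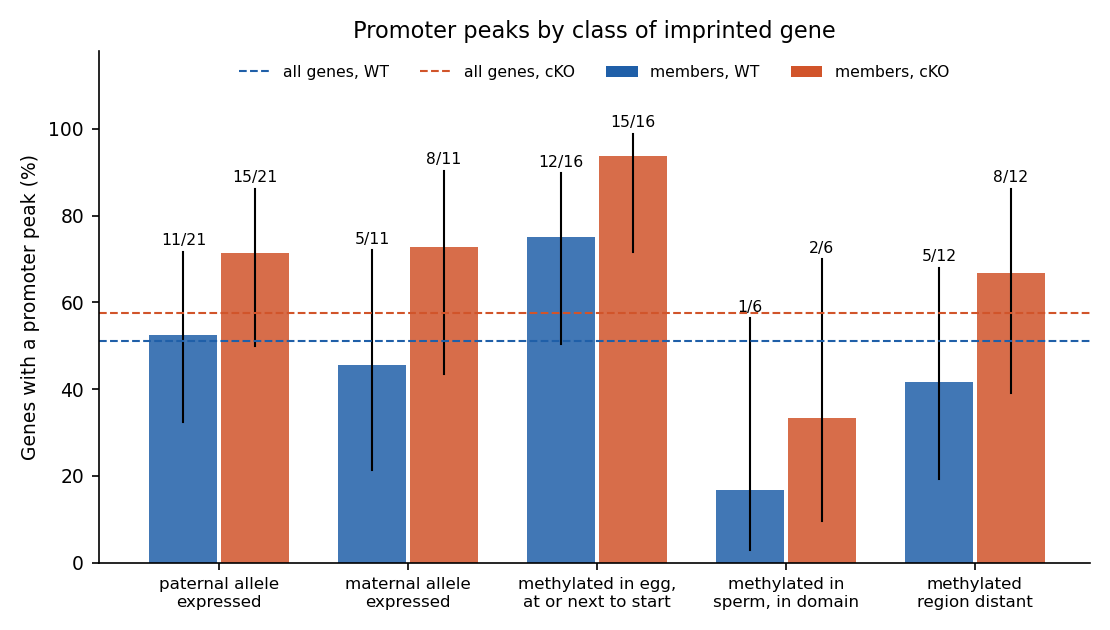
Share of genes with a promoter peak (vertical axis, %) in the WT (blue) and cKO (orange) lists by expressed allele and by germline DMR class, with Wilson 95% intervals (black lines) and counts above them. Dashed lines are the shares of all autosomal protein-coding genes, 51.1% and 57.6%. Bars for the paternal and maternal classes are alike, and the egg-methylated bars stand above and the sperm-methylated bars below the dashed lines.

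Short sequence motifs of factors with a known part in imprinting were counted in the RefSeq promoters, 250 bases before to 50 after the start, on both strands, for the 27 members that the sequence table holds. The ZFP57 motif TGCCGC, which this zinc-finger protein binds when methylated to protect imprints in the embryo, occurred in 11 of 27 members and in 11.6% of 31396 autosomal promoters: *Copg2*, *Grb10*, *Igf2*, *Mcts2*, *Meg3*, *Mest*, *Nap1l5*, *Nnat*, *Plagl1*, *Snrpn* and *Zim1*. Several of these members have more than 1 promoter in the table, 40 in all, of which 12 held the motif. The list mixes promoters with a peak in both lists (*Mcts2*), gained ones (*Meg3*, *Mest*, *Nnat*, *Snrpn*) and ones without a peak (*Igf2*, *Nap1l5*). The CTCF core AGGGGGC occurred in 6 members beside 10.7% of promoters, the NRF1 core GCATGCGC in 2 (*Ndn* and *Nnat*) beside 2.70%, the cyclic AMP response element TGACGTCA in 3 (*Meg3*, *Peg3* and *Usp29*, where the last 2 share a divergent promoter) beside 1.83%, and the YY1 motif AAGATGGCG in *Ube3a* beside 1.39%. Counted like the shares, per promoter, the CTCF core was in 9 of the 40 member promoters and the NRF1 core in 2. The cyclic AMP response element was in 3 of the 40 and the YY1 motif in 1. A match is a description of these letters and not a bound site.

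Further gene lists were counted beside all genes, of which 51.1% had a promoter peak in WT and 57.6% in cKO. Among all genes 6.74% gained one and 0.279% lost one. Other imprinted genes, 34 that are not among the members, held fewer promoter peaks than the members: 13 had one in WT and 19 in cKO, with 6 gains, 0 losses and a median relative fold ratio of 1.13 over 13 genes. Among the 6 were *Snurf*, which shares the *Snrpn* promoter, *Ppp1r9a* at 7.04 and *Mirg*, a noncoding RNA downstream of *Meg3*, at 7.04. Of 9 host and neighbour genes, 5 had a promoter peak in WT and 9 in cKO. The 4 gains were *Blcap*, around *Nnat*, at 3.11 (the *Nnat* peak itself), *Herc3*, around *Nap1l5*, at 5.24, *Phactr2*, beside *Plagl1*, at 3.76, and *Cobl*, beside *Grb10*, at 4.42. Of 20 factors that set, erase or protect imprints, 16 had a promoter peak in WT and 18 in cKO, with *Tet2* and *Dnmt3l* gained at 3.60 and 3.27 and a median relative ratio of 1.01. *Ctcfl*, the testis paralogue of CTCF, was the 1 of 16 past 1.5 times lower (0.619, folds 3.38 and 3.27), beside 3.01% of all genes. *Dnmt1*, which copies methylation at replication, stood at 0.720 (folds 14.8 and 16.7).

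Markers of other testis cells were counted in the same way, beside the 51.1% and 57.6% of all genes. Spermatogonial markers with a promoter peak numbered 3 of 10 in WT (folds 2.63 to 11.3) and 5 of 10 in cKO (3.11 to 24.5), with *Gfra1*, *Stra8*, *Dmrt1*, *Sall4* and *Nanos3* at none in either list. Spermatid markers numbered 3 of 8 (3.19 to 17.8) and 5 of 8 (3.44 to 32.4), with *Tnp1*, *Acrv1* and *Tssk1* at none. Somatic markers numbered 3 of 16 (3.19 to 3.75) and 4 of 16 (3.27 to 13.4), with 2 gained, 1 lost (*Gata4*, 3.19 in WT), *Amh* at a relative ratio of 2.69 over peaks of 420 bp in WT and 4830 bp in cKO, and *Sox9*, *Insl3*, *Lhcgr*, *Cyp11a1*, *Cyp17a1*, *Acta2*, *Myh11*, *Pecam1*, *Cdh5*, *Adgre1* and *Csf1r* at none. The spermatid marker *Prm2* had a relative ratio of 6.49, with folds of 3.19 in WT and 32.4 in cKO. Its promoter peaks covered 639 bp in WT and 10734 bp in cKO. The gene window of *Amh* held 2 peaks in WT and 1 in cKO, and ratios by matched summit are not given for these markers. Among all genes 1.26% lay past 1.5 times in the higher direction. The part of other cells in the gained imprinted promoters was not tested. In bulk libraries, a larger share of cells with an open site and a more open site in each cell cannot be told apart.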

How the data were processed

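ATAC-seq libraries were made by the authors with the Omni-ATAC protocol from purified pachytene spermatocytes, 4 per genotype, grouped here by the genotype labels. The authors trimmed reads (Trim Galore), aligned them to mm10 (bowtie2), removed duplicates and mitochondrial reads (Picard, SAMtools), called peaks per library (MACS2, no local lambda), left out blacklisted regions and took overlaps of replicates with bedtools. A filter on mapping quality was not given in the sources used here. The 2 deposited lists hold 52419 WT and 84006 cKO rows. Each row carries the deposited fold enrichment (a linear ratio, with 1 added to pileup and background), the deposited −log10 q, and, under the unit other, the deposited summit offset. All values of a list lay on 1 grid, so they came from 1 library, and which one is not stated. The deposited score column and the −log10 p were not used. Depth of the other libraries is unknown.

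Rows were joined by peak name (Python 3.11.15, pandas 2.3.3, numpy 2.4.6, scipy 1.17.1) and overlapped, by at least 1 bp, with promoters and gene windows of GENCODE vM21, on the same assembly. Fragments at a summit were recovered from the fold grid, to within 0.00032 of a whole number. The strongest promoter peak of each list gave the fold ratio. Summit positions were counted from the first base of the joined rows, and 94.9% of WT and 96.6% of cKO summits then lay inside the joined peak. Positions of summits and distances between them are therefore approximate. Joining, promoter calls, the grid and a known ratio were tested on simulated peaks. Sequences came from RefSeq (GRCm38.p6), where 27 of 34 members matched by symbol. *Hymai*, 1 of 10 host and neighbour genes listed, was not matched. Of each member peak, 50-base words were sought in the genome: apart from a *Kcnq1* body peak (44.4% unique in WT, 50% in cKO), at least 95% were unique in every one. Allele and DMR classes came from general knowledge. The named genes were all members, with full values for members whose promoter differed in presence, those past 1.5 times, the 3 strongest of each list and those with several peaks. Other genes come from lists. Members and lists were chosen with earlier results of these data known. Alternatives covered the promoter stretch, peak filters, units of counting, overlap, gene windows, background genes and allele class.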

Additional observations from a re-analysis of the deposited data

How the results depend on the processing

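No paired analysis was possible because the libraries of each genotype were merged by the authors into 1 list with no values per replicate, and for the same reason no replicate could be left out. The count of WT promoter peaks (13 to 20) and the median relative fold ratio (0.998 where each cKO summit was set against the WT peak under it), the median width ratio and both differences between paternally and maternally expressed genes stayed within 1.5 times or within their intervals under all alternatives run. The paternal minus maternal difference turned sign in WT by the peak centre and at a −log10 q of 10 (-12.12 in both), and with 1 start per gene and at a −log10 q of 5 (-7.359 in both), and in cKO at a −log10 q of 10 and with equal list lengths (2.60 in both) and with peaks on 3 or more rows (3.03). With promoters called by the peak centre, 16 members had a cKO promoter peak and 2 lost theirs (*Peg10* and *Grb10*), beside 44% and 4.46% of all genes. Promoter gains numbered 4 with 1 start per gene (6.58% of all genes), and 2 with lists of equal length (3.51%) or (2.89%) with cKO peaks kept only where their fold, divided by the all-gene ratio, reached the lowest WT fold, a choice made after seeing the data. Under that choice cKO peaks at members numbered 23, gained 1 and lost 3, and with equal list lengths they also numbered 23, 1 and 3. With peaks under a −log10 q of 5 left out, cKO peaks numbered 26, gained 5 and lost 3. With those under 10 left out, WT peaks numbered 17 (16 shared) and cKO peaks 22 (6 gained). With peaks on 3 or more rows, 13 were gained and 0 lost. Promoter gains then numbered 5 (7.87% of all genes), without *Ascl2* and *Mest*. Counted by rows, WT had 71 (70 shared) and cKO 120 (47 gained). Shares over all autosomal peaks were not computed under these settings, so these peak counts cannot be set beside them. The 5 members no longer gained with equal list lengths had cKO folds of 3.11 to 3.60, on 18 to 21 fragments of 1 library. With long noncoding genes in the background, 40.9% of genes had a WT and 47.4% a cKO promoter peak.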

Other observations

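A peak beyond the 3′ end of *Peg10* stood out among the regions next to members and was chosen after its values were seen. It lies 1410 bp past the last base of *Peg10*, at chr6:4761927-4762541 of mm10, and is in the cKO list alone, with a fold enrichment of 12.9 and a −log10 q of 60.2 on 3 rows. Of its 50-base words 78.3% were unique in the genome. The strongest peak at the 34 genes that had no counterpart in WT was that of *Meg3*, at 5.40. In the 5 kb past the ends of the other members, the cKO list held peaks after *Zrsr1* (fold 9.33), *Airn* (3.76) and *Gnas* (2.78), each overlapping a WT peak.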
